A study of Mus musculus with 4 samples.

Results

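The genes described here are the minichromosome maintenance genes MCM2 to MCM9 and the proliferation markers BUB1 and MKI67, measured in mouse testis RNA at 4 ages. They were taken by name from the gene column, and all 10 were found among the 112302 entries of each library. Total RNA of testis from the BALB/C strain was obtained from a commercial supplier and sequenced in 1 library each at embryonic day 14 (E14), embryonic day 18 (E18), 3 weeks and 6 months of age. The labels name no genotype, transgene or treatment beyond strain and age, and do not say how many animals gave the RNA of a library. Values are RPKM, the reads of a gene scaled by the length of its gene model and by the reads of the library. Stages were not replicated, so no test was possible, and every difference below is a difference between libraries.

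MCM2 to MCM7 form the ring at the core of the helicase that unwinds DNA ahead of the replication fork. The ring is loaded on replication origins before S phase, and its genes are textbook targets of E2F transcription factors in dividing cells. MCM8 and MCM9 form a separate complex that acts in homologous recombination, and mice lacking either gene have defects of the germ line. MKI67 encodes Ki-67, which coats mitotic chromosomes and is the usual antibody marker of cycling cells, and BUB1 encodes a kinase of the spindle assembly checkpoint that acts at kinetochores in mitosis and in meiosis.

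The reads behind the RPKM values numbered 33952471 to 38903334 per library, and all member values could be turned back into whole reads, between 28 and 2903 per gene and library. Intervals given below are 95% intervals computed from those reads and cover counting error only. The library labelled E14 was low in fetal germ cell markers and held part of the somatic ones. Its fetal germ cell markers summed to 1.67 RPKM with 0 of 7 genes at 1 RPKM or more and NANOS2 at 0. Markers listed for spermatogonia were not lower there, with 17.4 RPKM at E14 and 11.3 at E18 and 3 of 7 genes at 1 RPKM or more in each. The highest of them was UCHL1, at 13.2 RPKM at E14 and 6.42 at E18. Sertoli cell markers summed to 53.9 RPKM at E18 and 8.87 RPKM at E14, where 3 of 7 genes reached 1 RPKM, SOX9 (4.00 RPKM), CLU (2.27) and WT1 (1.64), while AMH (0.262) and DMRT1 (0.0198) were near 0. Leydig cell markers summed to 126 RPKM at E18 and 8.02 RPKM at E14, where 4 of 5 genes reached 1 RPKM. The E14 library had 313 RPKM of liver markers, 187 RPKM of skeletal muscle markers, 150 RPKM of erythroid markers and 80.8 RPKM of cartilage markers. The E18 library also held markers of other tissues, with 70.2 RPKM of liver, 44.7 of skeletal muscle, 41.3 of bladder, 24.9 of kidney and 20.1 of erythroid markers, and the 3-week library 44.4 RPKM of epididymis markers. Calls that rest on the E14 library are therefore given apart, and calls at 3 weeks and 6 months against a fetal stage use E18. Levels and within-library ratios are given for all 4 libraries. Summed meiotic markers ran 1.16, 4.32, 299 and 70.7 RPKM from E14 to 6 months, and elongating spermatid markers 1.33, 2.11, 16.6 and 6280 RPKM. In whole tissue RNA, fewer cells of a type and less RNA per cell cannot be told apart, and the part of cell makeup in the member values was not tested.

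The promoters of the members differ in the letters of known cell cycle elements. In RefSeq windows of the build GRCm38.p6, reaching 250 bases before and 50 bases after a gene's start, 9 of the 10 genes were matched, all but Mcm4, and Mcm7 had 2 windows. Both strands were searched for E2F forms (TTTCGCGC, TTTGGCGC, TTTCCCGC and TTTGCCGC), for the cell cycle genes homology region, or CHR (TTTGAA), and for the CCAAT box. E2F forms were found in the windows of 5 members, Mcm3, Mcm5, Mcm6, Mcm7 and Mcm8, against 2.60% of the 27025 genes with a window. CHR letters were found in 2 members, Mcm2 and Mki67, against 20.2% of genes, and CCAAT in all 9 against 41.1%. Bub1 and Mcm9 had neither an E2F form nor CHR letters. A match is a description of letters and not of a bound site, and an absent match says only that these letters are not in this window. The 5 windows below show the E2F forms of replicative genes that ran differently over the stages (Mcm5 and Mcm6 against Mcm7), the E2F form of Mcm8, and the CHR letters of Mki67. Capitals mark E2F forms in the Mcm windows and CHR letters in Mki67, on either strand, and CCAAT boxes are left in lower case. In Mcm5 and in the first match of Mcm6 a pair of E2F forms on opposite strands overlap in 1 run of capitals, and the last E2F form of Mcm7 shares its final base with a CCAAT box. The other Mcm7 window held a CCAAT box and no E2F form or CHR letters.
Mcm5, chr8:75109259-75109558, plus strand: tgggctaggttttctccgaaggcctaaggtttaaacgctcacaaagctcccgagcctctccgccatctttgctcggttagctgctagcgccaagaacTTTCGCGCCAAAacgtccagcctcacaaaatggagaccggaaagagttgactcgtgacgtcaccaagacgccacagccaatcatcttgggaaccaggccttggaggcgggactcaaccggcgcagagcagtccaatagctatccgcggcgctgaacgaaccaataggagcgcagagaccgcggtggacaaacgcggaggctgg
Mcm6, chr1:128359656-128359955, minus strand: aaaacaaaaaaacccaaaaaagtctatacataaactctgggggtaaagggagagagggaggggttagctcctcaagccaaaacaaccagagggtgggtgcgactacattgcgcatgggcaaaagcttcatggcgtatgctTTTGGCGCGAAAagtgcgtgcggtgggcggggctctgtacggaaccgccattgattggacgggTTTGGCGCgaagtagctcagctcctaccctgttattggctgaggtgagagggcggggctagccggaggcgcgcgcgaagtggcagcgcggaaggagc
Mcm7, chr5:138171834-138172133, minus strand: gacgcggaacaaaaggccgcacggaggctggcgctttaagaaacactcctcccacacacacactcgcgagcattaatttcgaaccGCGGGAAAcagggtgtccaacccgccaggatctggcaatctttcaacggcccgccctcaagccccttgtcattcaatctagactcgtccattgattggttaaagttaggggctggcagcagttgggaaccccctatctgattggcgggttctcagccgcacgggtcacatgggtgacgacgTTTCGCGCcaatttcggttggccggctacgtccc
Mcm8, chr2:132815891-132816190, plus strand: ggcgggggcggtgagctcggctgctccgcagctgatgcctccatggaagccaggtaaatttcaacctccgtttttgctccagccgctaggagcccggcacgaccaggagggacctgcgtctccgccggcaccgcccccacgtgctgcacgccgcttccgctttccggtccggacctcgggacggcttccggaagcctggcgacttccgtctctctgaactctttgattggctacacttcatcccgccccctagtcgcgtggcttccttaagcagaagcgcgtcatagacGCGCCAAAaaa
Mki67, chr7:135716330-135716629, minus strand: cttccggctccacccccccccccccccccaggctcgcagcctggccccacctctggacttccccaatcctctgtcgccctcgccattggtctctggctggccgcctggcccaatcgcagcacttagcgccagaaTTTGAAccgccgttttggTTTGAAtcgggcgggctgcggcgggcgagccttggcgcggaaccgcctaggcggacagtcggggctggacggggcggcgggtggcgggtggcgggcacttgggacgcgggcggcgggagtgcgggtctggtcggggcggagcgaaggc

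Within MCM2 to MCM7, MCM2 to MCM6 were lower at 6 months than at E18 and MCM7 was higher, directions that a rescaling over ribosomal protein genes turned for MCM3 and one to an equal protein-coding sum turned for MCM7. MCM2 (chr6:88883474-88898780, minus strand, GRCm38 as for all positions here) had 16.8 RPKM at E14 and 13.8 at E18, then 4.83 at 3 weeks and 1.71 at 6 months. It was high in both fetal libraries and lowest at 6 months, and no pair of its counting intervals overlapped. The 6-month level was 0.124 times that at E18 (interval 0.107 to 0.143), the smallest ratio among the 10 genes in that comparison. MCM5 (chr8:75109569-75128439, plus strand) had 13.8, 9.91, 5.24 and 2.68 RPKM over the same 4 stages. Its order over the libraries was that of MCM2, with a smaller 6-month difference, 0.271 times the E18 level (0.239 to 0.306).

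MCM6 (chr1:128331590-128359664, minus strand) had 7.11, 7.17, 3.70 and 1.17 RPKM from E14 to 6 months. The fetal libraries did not differ beyond counting error, with an E18 over E14 ratio of 1.01 (0.929 to 1.10), and the 6-month level was 0.163 times that at E18. MCM4 (chr16:15623897-15637400, minus strand) had 4.99, 3.86, 2.04 and 0.576 RPKM, the last from 74 reads. MCM3 (chr1:20802968-20820312, minus strand) had 3.06, 2.17, 1.68 and 0.663 RPKM, the last from 71 reads. These genes were lowest at 6 months as well, at 0.149 times the E18 level for MCM4 (0.115 to 0.191) and 0.306 times for MCM3 (0.231 to 0.401). MCM3 was the lowest of MCM2 to MCM7 at E14, E18 and 3 weeks, and MCM4 at 6 months, although the 6 proteins stand in the ring in equal number. The counting intervals of MCM3 and MCM4 overlapped at 3 weeks and at 6 months, so their order there is within counting error.

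MCM7 (chr5:138164583-138172422, minus strand) had 6.16 RPKM at E14 and 5.97 at E18, then 9.40 at 3 weeks and 8.19 at 6 months. It was higher in both later libraries than in both fetal ones, with 1.57 times the E18 level at 3 weeks (1.45 to 1.71) and 1.37 times at 6 months (1.26 to 1.50). The 3-week difference of MCM7 in log2(RPKM + 1) was 0.577, beside a median of 0.460 over all entries. Under the median of ratios these were 0.224 and 0.232, and under the protein-coding sum 0.234 and 0.252, so the rise was not particular to MCM7 there. Under the ribosomal protein scaling they were 1.70 and 1.16. MCM7 took 11.9% of the summed RPKM of MCM2 to MCM7 at E14 and 13.9% at E18, then 35.0% at 3 weeks and 54.6% at 6 months. MCM2 took 32.4% at E14, 32.1% in the E18 library and 11.4% at 6 months. These shares are ratios within a library and do not move with its scaling. The RPKM ratio of MCM7 to MCM2 was 0.366, 0.433, 1.94 and 4.80 over the 4 stages, with an interval of 4.14 to 5.58 at 6 months and of 0.399 to 0.470 at E18.

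**Figure D1:**
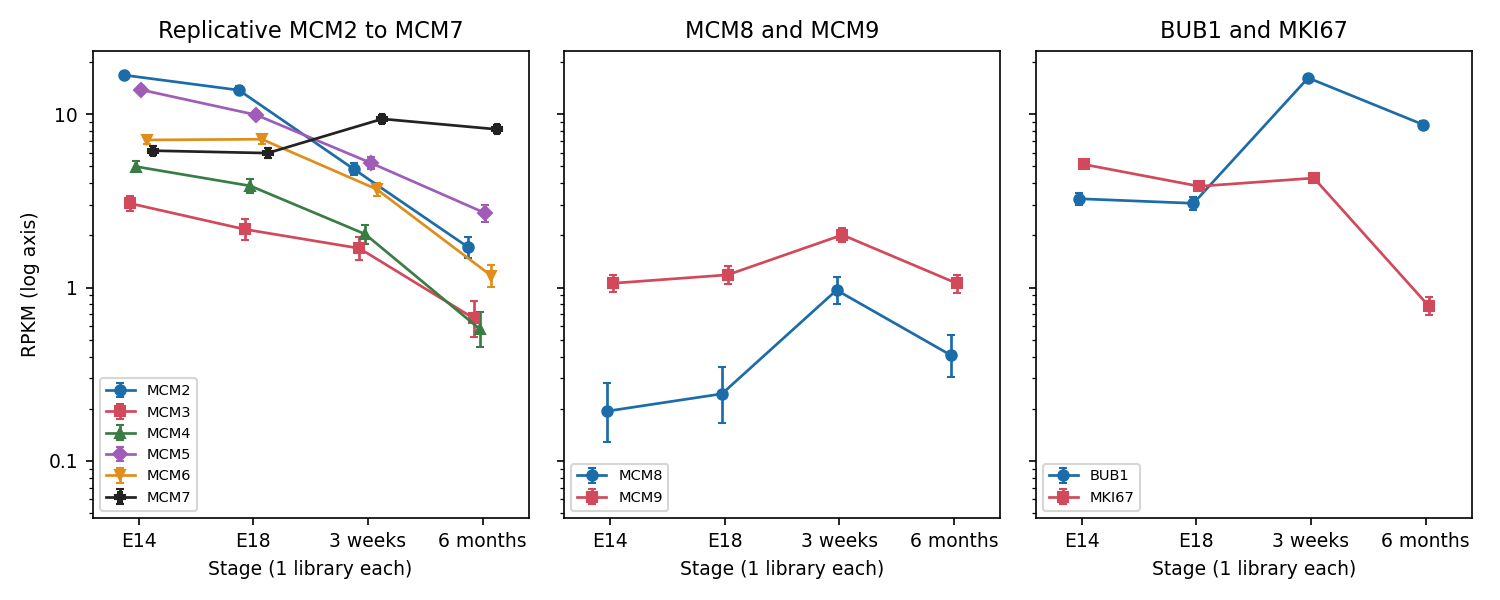
RPKM of the 10 genes at each stage on a log axis, 1 library per stage, with replicative MCM2 to MCM7, MCM8 and MCM9, and BUB1 and MKI67 in 3 panels. Bars are 95% counting intervals. MCM2 ended at 1.71 RPKM and MCM7 at 8.19 RPKM at 6 months, and BUB1 peaked at 16.2 RPKM at 3 weeks.

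**Figure D2:**
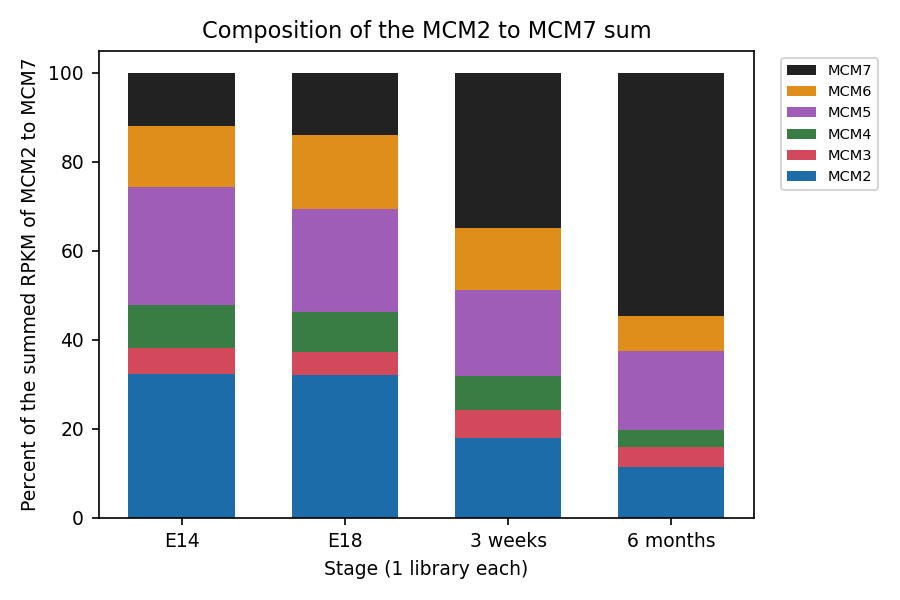
Percent of the summed RPKM of MCM2 to MCM7 taken by each gene, 1 stacked bar per stage. The MCM7 part was 54.6% at 6 months and 13.9% at E18, and the MCM2 part was 11.4% at 6 months and 32.1% at E18.

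The span between the highest and lowest of MCM2 to MCM7 was 5.50-fold at E14 and 6.35-fold at E18, then 5.58-fold at 3 weeks and 14.2-fold at 6 months. MCM2 was the highest of them in both fetal libraries and MCM7 in both later ones. The later spans rested on MCM7. Next below it was MCM5, at 5.24 RPKM at 3 weeks and 2.68 at 6 months. The lowest genes there were MCM3 at 1.68 RPKM and MCM4 at 0.576. Without MCM7, the other members summed to 45.8, 36.9, 17.5 and 6.80 RPKM from E14 to 6 months, and with it to 52.0, 42.9, 26.9 and 15.0 RPKM. The summed level was lowest at 6 months with or without MCM7.

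MCM7 lies among other genes, and its value depends on how overlapping reads were counted. Its annotated exons share 321 bases, 7.25% of its exon length, with Ap4m1, a subunit gene of an adaptor protein complex, and 64 bases with Cops6, a subunit gene of the COP9 signalosome. Both are on the opposite strand, and the use of strand in counting is not given in the sources used here. AP4M1 had 239, 188, 309 and 456 reads at the 4 stages and MCM7 had 1061, 904, 1412 and 1297. Taking every AP4M1 read away from MCM7, without knowing how many lie in the shared bases, left 4.77, 4.73, 7.34 and 5.31 RPKM. The 3-week level was then 1.55 times that at E18 and the 6-month level 1.12 times. In log2(RPKM + 1) that 6-month difference was 0.139, beside a median of 0.198 over all entries. COPS6 had 765, 647, 776 and 919 reads, and taking all of these away left MCM7 at 1.72, 1.70, 4.23 and 2.39 RPKM, with 2.49 times the E18 level at 3 weeks and 1.41 times at 6 months. AP4M1 and COPS6 together had more reads than MCM7 at 6 months, so both cannot be removed in full. The microRNA genes Mir25, Mir93 and Mir106b inside Mcm7 had 1 to 6 reads each per library.

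MCM8 and MCM9 were highest in the 3-week library. MCM8 (chr2:132816141-132844197, plus strand) had 0.194 RPKM at E14 and 0.244 at E18, then 0.966 at 3 weeks and 0.406 at 6 months, from 28, 31, 122 and 54 reads. Its 3-week interval (0.803 to 1.15 RPKM) lay above those of the other 3 libraries, and the ratio to E18 was 3.97 (2.66 to 6.09). The 6-month level was 1.67 times that at E18, with an interval that nearly reached 1 (1.05 to 2.68). MCM8 did not reach 1 RPKM in any library, so it stayed outside the filter of 1 RPKM in at least 1 library that the other 9 genes passed.

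MCM9 (chr10:53536315-53630439, minus strand) had 1.06 RPKM at E14 and 1.18 at E18, then 2.01 at 3 weeks and 1.06 at 6 months. It was high at 3 weeks alone, at 1.70 times the E18 level (1.47 to 1.97), and the 6-month level did not differ from E18 beyond counting error (ratio 0.892, 0.755 to 1.05). The 3-week difference of MCM9 in log2(RPKM + 1), 0.464, was near the median of all entries, 0.460. Under the median of ratios the values were 0.213 and 0.232, so the rise was not particular to MCM9. MCM9 stood 5.47, 4.86, 2.08 and 2.60 times above MCM8 in RPKM over the 4 stages. The reads counted for MCM9 cannot be separated here from those of Asf1a, a histone chaperone gene on the opposite strand inside Mcm9. The genes share 1748 exon bases, 19.2% of the exon length of Mcm9. MCM9 had 305, 300, 506 and 280 reads and ASF1A 348, 294, 495 and 300, so the counts differed by at most 43 reads in a library. ASF1A ran 4.10, 3.94, 6.68 and 3.84 RPKM, with a 3-week over E18 ratio of 1.70, the same as that of MCM9 to 3 digits. Whether the MCM9 values are reads of ASF1A was not tested, and the MCM9 pattern is uncertain for that reason.

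**Figure D3:**
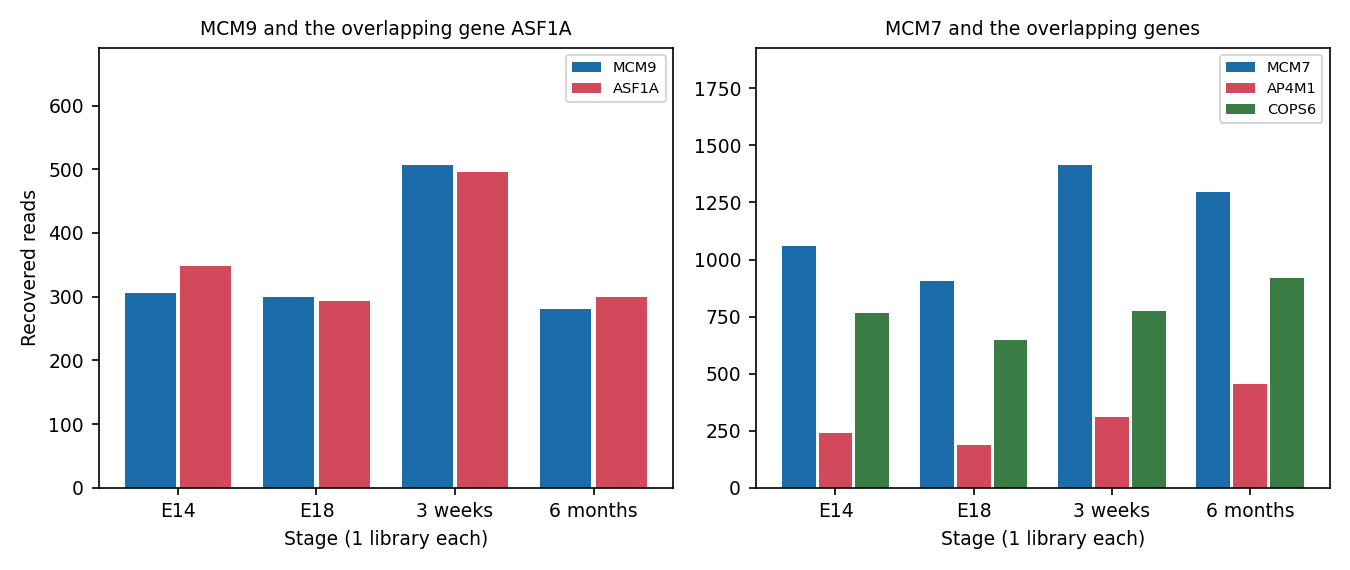
Recovered reads per library for MCM9 with the overlapping gene ASF1A (left) and for MCM7 with AP4M1 and COPS6 (right), 1 group of bars per stage. MCM9 and ASF1A had 506 and 495 reads at 3 weeks and stood within 43 reads of each other at every stage, while MCM7 kept more reads than AP4M1 in every library.

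The balance between the replicative genes and the recombination pair moved with stage. The summed RPKM of MCM2 to MCM7 over that of MCM8 and MCM9 was 41.5 at E14 and 30.03 at E18, then 9.02 at 3 weeks and 10.3 at 6 months. It was high in the fetal libraries and low in both later ones. Set against MCM8 alone, which shares no annotated exon with another gene, the ratio was 268, 176, 27.8 and 36.9. Leaving MCM7 out of the sum gave 36.6, 25.8, 5.87 and 4.65 over MCM8 and MCM9, so the order of the 3-week and 6-month libraries rested on MCM7.

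BUB1 and MKI67, both read as proliferation markers, parted after E18. BUB1 (chr2:127801122-127831865, minus strand) had 3.25 RPKM at E14 and 3.06 at E18, then 16.2 at 3 weeks and 8.72 at 6 months. It was low in both fetal libraries and stood at 5.29 times the E18 level at 3 weeks (4.83 to 5.81) and 2.85 times at 6 months (2.59 to 3.14). MKI67 (chr7:135689784-135716361, minus strand) had 5.13, 3.84, 4.28 and 0.785 RPKM. Its first 3 libraries stood within 1.34-fold of each other, and the 6-month level was 0.204 times that at E18 (0.179 to 0.233) and 0.183 times that at 3 weeks (0.161 to 0.208).

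The RPKM ratio of BUB1 to MKI67 was 0.635 at E14 (0.581 to 0.693) and 0.798 at E18 (0.721 to 0.881), then 3.78 at 3 weeks (3.55 to 4.03) and 11.1 at 6 months (9.80 to 12.7). No intervals overlapped, and MKI67 was the higher gene in the fetal libraries and BUB1 in the later ones. MKI67 over the mean of MCM2 to MCM7 was 0.592, 0.538, 0.956 and 0.314. The low 6-month ratio rested on MCM7. Over the mean of MCM2 to MCM6 the ratio was 0.560, 0.520, 1.22 and 0.577, highest at 3 weeks. BUB1 over its relative BUB1B, which encodes the checkpoint kinase homologue BUBR1, was 0.799, 0.857, 1.66 and 1.41. Beside these values, the meiotic marker sum was 299 RPKM at 3 weeks and 4.32 RPKM at E18, and the part of meiotic cells in the BUB1 level was not tested.

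The order of the 10 genes by RPKM changed after E18. At E14 and E18 MCM2 and MCM5 led, and MCM9 and MCM8 came last. At 3 weeks BUB1 led, MCM7 came next, and MCM5, MCM2 and MKI67 followed with overlapping intervals between neighbours. At 6 months BUB1 and MCM7 led with overlapping intervals, and MKI67, MCM3, MCM4 and MCM8 came last, each with an interval that overlapped the next. MKI67 lay below MCM9 beyond counting error.

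Between stages, a gene was called when log2(RPKM + 1) differed by at least 1, a 2-fold limit on that scale. The added 1 shrinks the difference of low genes. Shares of all entries are over the 42964 entries that reached 1 RPKM in at least 1 library. Shares under a rescaling are over the entries that pass this filter after it, a different number, while moves of the median keep the 42964. In the 3-week library against E18, 1 of the 10 members was called higher, BUB1 (log2 difference 2.08), where 32.0% of all entries were higher. In that comparison 1 member was called lower, MCM2 (-1.34), where 10.5% of all entries were lower. MCM3 (-0.24), MCM4 (-0.68), MCM5 (-0.81) and MCM6 (-0.80) were not called. MCM7 (0.58), MCM8 (0.66), MCM9 (0.46) and MKI67 (0.13) were on the other side of 0 and not called either. The counting interval of the ratio excluded 1 for all 10.

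Rescaling decides some of these directions. Rescaling over 28 ribosomal protein genes multiplied the 3-week library by 2.48 relative to E18, moved the median of all entries by 0.70, put 52.8% of all entries higher and 2.10% lower, and turned MCM3, MCM4, MCM5 and MCM6 higher. MCM2 kept its sign there and lost its call. The median of ratios and an equal sum over protein-coding genes moved the median of all entries by -0.23 and -0.21 and turned MKI67 lower. They put 25.4% and 26.8% of all entries higher, and 14.3% and 15.3% lower. The median difference of MCM2 to MCM7 was -0.74, against 0.46 over all entries, and it stood below the median of all entries under each of these scalings.

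In the 6-month library against 3 weeks, 0 of the 10 members were called higher, where 9.73% of all entries were higher. MCM2 (-1.11), MCM6 (-1.11) and MKI67 (-1.57) were called lower, 3 of 10 where 14.1% of all entries were lower. MCM2 and MCM6 lost their calls under the median of ratios (-0.72 and -0.75) and under the ribosomal protein scaling (-0.89 and -0.96), while MKI67 kept its call. The other members ran between -0.95 for MCM4 and -0.18 for MCM7, and MCM7 was on the other side of 0 under the median of ratios and the ribosomal protein scaling. The median of MCM2 to MCM7 was -0.85, against -0.31 over all entries. The median of ratios put 14.8% of all entries higher and 5.79% lower in this comparison, and the ribosomal protein scaling 16.1% higher and 9.18% lower, and they moved the median of all entries by 0.29 and 0.22. The protein-coding sum put 7.37% higher and 17.6% lower.

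In the 6-month library against E18, BUB1 was the 1 member called higher (1.26), where 32.9% of all entries were higher. MCM2 (-2.45), MCM6 (-1.91), MCM4 (-1.62), MCM5 (-1.57) and MKI67 (-1.44) were called lower, 5 of 10 where 15.4% of all entries were lower. MCM3 (-0.93) was just short of the limit, and MCM7 (0.40), MCM8 (0.18) and MCM9 (-0.09) were nearer to 0. MCM3 and MCM9 changed sign under the ribosomal protein scaling and MCM7 under the protein-coding sum. Under the ribosomal protein scaling, which moved the median of all entries by 1.02 and put 55.4% of entries higher and 2.75% lower, MCM2 alone kept its lower call. Under the protein-coding sum, which put 26.8% of entries higher and 24.5% lower, BUB1 lost its call.

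Between the fetal libraries no member was called. In E18 against E14, 2.17% of all entries were higher and 1.34% were lower, and the members ran between -0.44 for MCM5 and 0.08 for MCM9. The median of ratios put 1.85% of entries higher and 1.95% lower there and turned MCM6 and MCM9 to the lower side, as the other rescalings did for MCM6. MCM2, MCM3, MCM4, MCM5 and MKI67 had ratios whose intervals excluded 1, between 0.709 for MCM3 and 0.819 for MCM2. The E14 library's markers of other tissues, given above, stand beside these values, and their part in them was not tested. With E14 in place of E18, the later comparisons gave 1 higher and 2 lower calls at 3 weeks, and 1 higher and 6 lower at 6 months. The shares of all entries called were not computed for these 2 comparisons, so the counts have no background beside them.

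**Figure D4:**
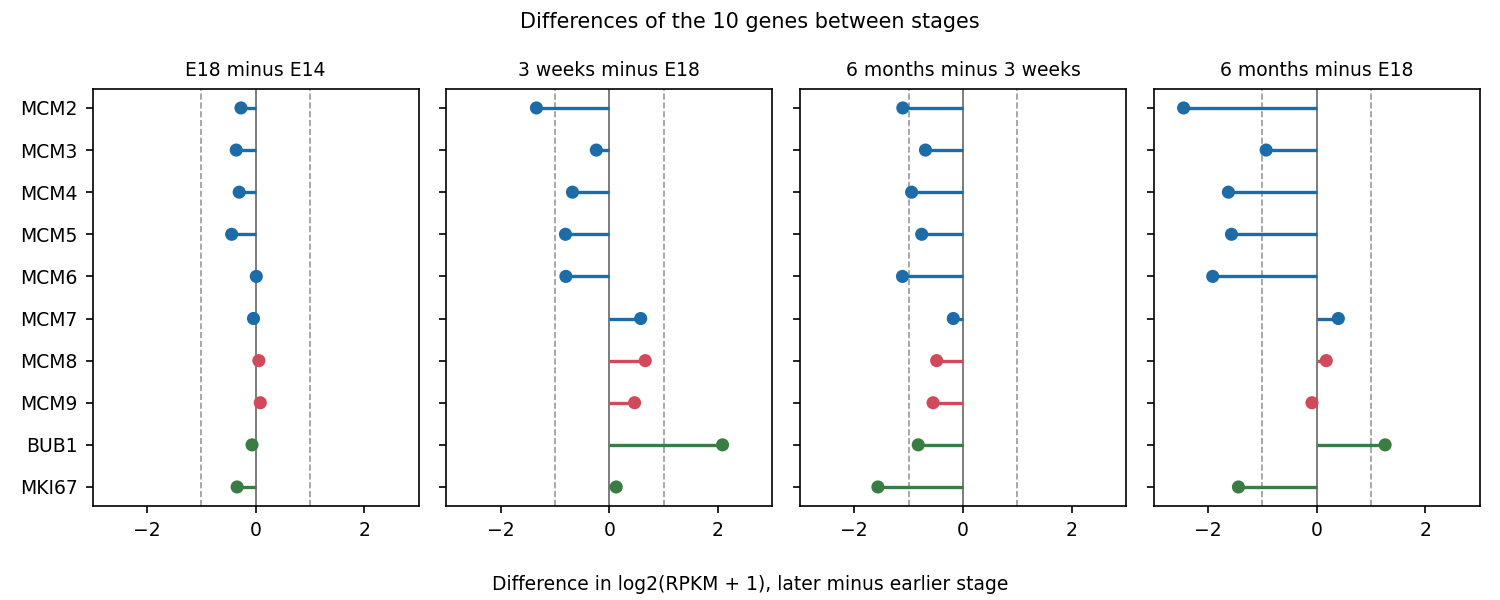
Difference in log2(RPKM + 1) of the 10 genes, later minus earlier stage, in 4 comparisons, with MCM2 to MCM7 in blue, MCM8 and MCM9 in red and BUB1 and MKI67 in green. Dashed lines mark the 2-fold limit. BUB1 was at 2.08 and MCM2 at -1.34 in 3 weeks minus E18, and MCM2 reached -2.45 in 6 months minus E18.

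Genes that act with the members were taken from 7 lists with 110 genes, of which 103 reached 1 RPKM in at least 1 library. Of these, 31 (30.1%) were called higher at 3 weeks against E18, near the 32.0% of all entries, and 3 (2.91%) lower, against 10.5%. Of the 12661 measured protein-coding genes, a closer reference for these lists, 24.1% were higher and 13.2% lower there. At 6 months against 3 weeks, 2 (1.94%) were called higher, against 9.73% of all entries, and 16 (15.5%) lower, against 14.1%. The protein-coding shares there were 9.54% higher and 7.87% lower. The lower share of the lists was thus near that of all entries and above that of protein-coding genes. At 6 months against E18, 14 (13.6%) were called higher and 7 (6.80%) lower, against 32.9% and 15.4% of all entries. The protein-coding shares were 24.9% and 19.0%. The median of the list genes at 3 weeks against E18 was 0.59, beside 0.46 over all entries. Under the ribosomal protein scaling 66 list genes were higher and 0 lower, where 52.8% of all entries were higher and 2.10% lower. The median of ratios gave 20 and 4 (all entries 25.4% and 14.3%), and an equal protein-coding sum 21 and 5 (all entries 26.8% and 15.3%). At 6 months against 3 weeks the split depended on the scaling. It was 6 higher and 1 lower under the median of ratios (all entries 14.8% and 5.79%). Under the ribosomal protein scaling it was 6 higher and 7 lower (all entries 16.1% and 9.18%). Against E18 the 6-month split was 57 higher and 0 lower under the ribosomal protein scaling, where 55.4% of all entries were higher and 2.75% lower. With an equal protein-coding sum it was 9 higher and 24 lower, where 26.8% of all entries were higher and 24.5% lower.

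Of the 10 measured origin licensing genes, which load MCM2 to MCM7 on DNA, 2 (20.0%, against 32.0% of all entries) were called higher at 3 weeks against E18 and 0 lower, ORC2 at 8.53 RPKM at 3 weeks and 2.06 at E18, and ORC5 at 3.88 RPKM at 3 weeks and 1.04 at E18. Both encode subunits of the origin recognition complex. In the 6-month library against 3 weeks, 3 were lower, led by ORC4 (1.01 RPKM at 6 months and 3.78 at 3 weeks) and ORC2 (3.06 at 6 months and 8.53 at 3 weeks). MCMBP, which binds MCM proteins, was the 1 gene lower in the 6-month library against E18, with 1.20 RPKM at 6 months and 3.60 at E18.

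Of the 12 helicase activation genes, 4 were called higher at 3 weeks against E18 and 0 lower. The 33.3% higher stood beside 32.0% of all entries and 24.1% of measured protein-coding genes. DONSON, which helps assemble the active helicase, had 10.2 RPKM at 3 weeks and 1.90 at E18. It was also the 1 gene of the list called at 6 months against E18, where it was higher, at 10.8 RPKM at 6 months. DBF4, the partner of the kinase that phosphorylates the MCM ring, had 8.005 RPKM at 3 weeks and 2.13 at E18. TOPBP1 (4.72 RPKM at 6 months and 12.0 at 3 weeks) and the kinase CDC7 (1.36 at 6 months and 4.00 at 3 weeks) were the 2 lower at 6 months against 3 weeks.

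Of 26 measured replication fork genes, 5 (19.2%) were called higher at 3 weeks against E18 and 2 (7.69%) lower, against 32.0% and 10.5% of all entries. CHAF1A, of the chromatin assembly factor that follows the fork, had 10.0 RPKM at 3 weeks and 2.34 at E18, and POLD3, a DNA polymerase delta subunit, 11.9 RPKM at 3 weeks and 3.12 at E18. The 2 lower genes both make thymidine nucleotides, TK1 at 0.572 RPKM at 3 weeks and 2.38 at E18, and TYMS at 0.599 RPKM at 3 weeks and 2.35 at E18. CHAF1A (22.3 RPKM at 6 months and 10.0 at 3 weeks) and the flap endonuclease FEN1 (4.51 at 6 months and 0.815 at 3 weeks) were higher at 6 months against 3 weeks, where 0 of the list were lower. At 6 months against E18, 5 were higher, led by CHAF1A and the clamp loader subunit RFC2 (46.4 RPKM at 6 months and 10.0 at E18), and 3 were lower, led by TK1 and TYMS.

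Of the 8 measured genes of the list around MCM8, MCM9 and recombination, 5 (62.5%, against 32.0% of all entries) were called higher at 3 weeks against E18 and 0 lower, with a median of 1.15 against 0.46 over all entries. Under the median of ratios and the protein-coding sum 3 stayed above the limit. DMC1, the meiotic recombinase, had 6.24 RPKM at 3 weeks and 0.395 at E18, and BRCA2, which loads it, 6.51 RPKM at 3 weeks and 1.04 at E18. They were also the 2 genes called lower at 6 months against 3 weeks, with 1.75 RPKM of DMC1 and 1.98 RPKM of BRCA2 at 6 months. BC030867 was the 1 gene called at 6 months against E18, higher at 5.81 RPKM at 6 months and 0.694 at E18. MCM8, at most 0.966 RPKM, could not reach the limit on this scale, and with a pseudocount of 0.1 it was past it at 3 weeks against E18 (1.63). Under the ribosomal protein scaling MCM8 (1.07) and MCM9 (1.21) both passed it there.

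Spindle checkpoint genes, the list nearest to BUB1 in function, had 7 of 17 (41.2%, against 32.0% of all entries) called higher at 3 weeks against E18 and 0 lower, with a median of 0.70 against 0.46 over all entries. TTK, the MPS1 kinase that starts the checkpoint, had 12.4 RPKM at 3 weeks and 2.26 at E18, and NUF2, of the kinetochore's microtubule-binding complex, 4.84 RPKM at 3 weeks and 0.455 at E18. Against 3 weeks, 4 were lower at 6 months, led by the kinetochore scaffold CASC5 (2.90 RPKM at 6 months and 9.02 at 3 weeks) and NUF2 (1.31 at 6 months and 4.84 at 3 weeks). TTK (6.61 RPKM at 6 months) and CDC20, the checkpoint's target (7.91 RPKM at 6 months and 3.07 at E18), were higher at 6 months against E18, and SGOL1, a protector of centromere cohesion, was lower (0.191 RPKM at 6 months and 1.48 at E18).

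Among 17 measured mitosis genes, 4 (23.5%) were called higher at 3 weeks against E18 and 1 (5.88%) lower, against 32.0% and 10.5% of all entries. AURKA, a spindle pole kinase, had 24.1 RPKM at 3 weeks, 25.1 at 6 months and 3.75 at E18, and the kinetochore protein gene CENPF 6.56 RPKM at 3 weeks and 1.18 at E18. UBE2C, a ubiquitin-conjugating enzyme of the anaphase-promoting complex, was the lower one, at 1.78 RPKM at 3 weeks and 5.01 at E18. Against 3 weeks, 3 were lower at 6 months, CENPF (2.40 RPKM at 6 months and 6.56 at 3 weeks), the spindle motor gene KIF11 and the DNA topoisomerase gene TOP2A (1.84 RPKM at 6 months and 5.10 at 3 weeks). Against E18, 3 were higher at 6 months, led by AURKA and FOXM1, a transcription factor of mitotic genes (9.55 RPKM at 6 months and 2.50 at E18), and 0 were lower.

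Of 13 measured cell cycle regulators, whose median of 0.19 lay below the 0.46 of all entries, 4 (30.8%, against 32.0% of all entries) were called higher at 3 weeks against E18, led by MYBL1, the transcription factor A-MYB of meiotic male germ cells (16.5 RPKM at 3 weeks and 1.25 at E18), and CDKN2D, a CDK inhibitor (9.53 at 3 weeks and 3.09 at E18), and 0 were lower. Against 3 weeks, 2 were lower and 0 higher at 6 months, MYBL1 (5.19 RPKM at 6 months) and TFDP1, a partner of E2F proteins (3.93 at 6 months and 8.99 at 3 weeks). Against E18, MYBL1 and CDKN2D were higher at 6 months, and the 2 lower genes were CDKN1B, the CDK inhibitor p27 (0.881 RPKM at 6 months and 4.65 at E18), and E2F1 (0.629 at 6 months and 2.95 at E18). E2F2 was the 1 gene of the 7 lists called between the fetal libraries, at 0.760 RPKM at E18 and 3.01 at E14.

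**Figure D5:**
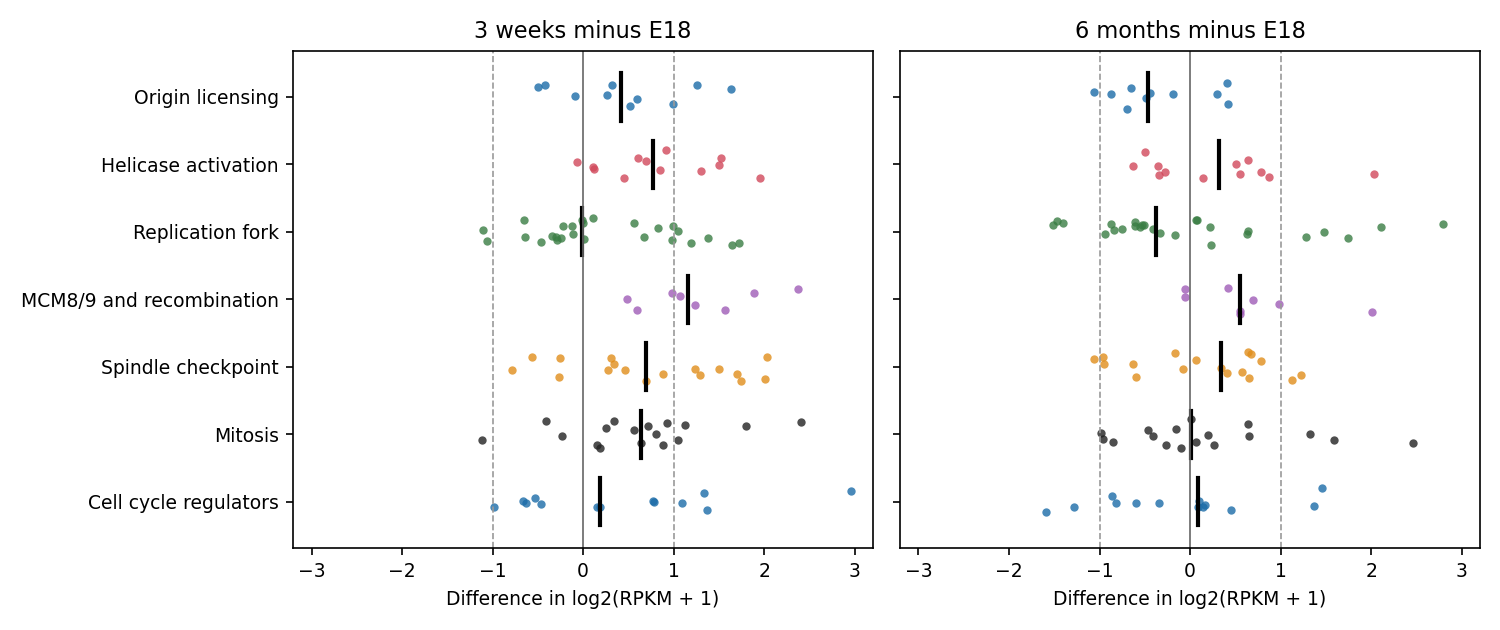
Difference in log2(RPKM + 1) of each measured gene in the 7 lists, 3 weeks minus E18 (left) and 6 months minus E18 (right), with black bars at the list medians and dashed lines at the 2-fold limit. The recombination list had the highest median at 3 weeks, 1.15, and the replication fork list the lowest, -0.01.

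The same letters were counted in the promoters of the lists. CHR letters were in 12 of the 14 mitosis genes with a window and in 8 of the 12 spindle checkpoint genes, against 20.2% of genes. They were also in 4 of 7 helicase activation genes, in 2 of 24 replication fork genes and in 0 of 10 licensing genes. E2F forms were in 5 of the 10 licensing genes, 2 of 7 helicase activation genes, 6 of 24 replication fork genes, 1 of 14 mitosis genes and 0 of 12 checkpoint genes, against 2.60% of genes. Bub1 held neither in its window, and Mcm2 held CHR letters and no E2F form.

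The protein-coding genes with the nearest profiles over the 4 libraries were sought for the mean of MCM2 to MCM7 and for MCM8, MCM9, BUB1 and MKI67. They differed between these profiles. MCM2 to MCM7 were not taken singly, and their mean joins MCM7 with genes that ran differently. Nearness was the Euclidean distance between log2(RPKM + 1) profiles, each centred on its own mean, and 4 points make a weak description. Nearest to the mean of MCM2 to MCM7 was Cdc16, a subunit gene of the anaphase-promoting complex, at a distance of 0.0131, followed by Marcksl1 (0.123) and Atf4 (0.178). Nearest to BUB1 was Ttk (0.0452), followed by Chfr (0.0654) and Arid2 (0.114), out of 3092 candidates. MKI67 had no neighbour as close, with Top2b at 0.141, Rbmxl1 at 0.216 and Cdo1 at 0.244. Among 10415 candidates with a lower limit on level, Xpnpep3 (0.0421), Cdk10 (0.0512) and Brd1 (0.0630) were nearest to MCM8, and Slc30a6 (0.0195), N4bp2l2 (0.0273) and Tusc2 (0.0292) to MCM9.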

How the data were processed

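RNA of mouse testis was sequenced in 4 libraries, 1 at each of E14, E18, 3 weeks and 6 months. The labels' protocols name tissue RNA bought from a supplier, ERCC spike-in RNA and a directional library kit, and differ within themselves on whether RNA was selected by rRNA depletion or by poly(A). The values are RPKM per gene as deposited by the authors, 112302 entries per library. Per the submitters' processing notes, TopHat2 and mm10 were used, while the sources used here do not give the counting tool, the gene models, the strand setting or the handling of overlapping genes.

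Samples were grouped by the age given in their labels. Reads behind each RPKM were recovered from single-exon genes that hold 1 read, with all 245 listed entries whole within a relative tolerance of 1e-09. Levels carry exact Poisson intervals and ratios exact Clopper-Pearson intervals at 95%, for counting error only. Stages were compared by the difference in log2(RPKM + 1), pseudocount 1, with a 2-fold limit, over the 42964 entries with at least 1 RPKM in at least 1 library. With 1 library per stage no statistical test was made. The calling step was tried on simulated counts with counting error alone, for genes with a mean of at least 5 RPKM and planted 4-fold changes. That trial does not cover variation between animals or genes at lower levels. Positions and overlaps are from GENCODE vM21 (GRCm38, the mm10 assembly), whose exon length equalled the authors' model length for 3 of the 10 genes, and promoter windows are from RefSeq. Named genes were all members, up to 2 genes per list, direction and comparison with the largest difference past the limit, and the 3 protein-coding genes nearest to each profile, with a mean of at least 5 RPKM, or 1 RPKM for MCM8 and MCM9. The members and lists were chosen with earlier results of these data known. Alternatives were a pseudocount of 0.1, a 4-fold limit, 3 rescalings (median of ratios over 26320 entries, 28 ribosomal protein genes, protein-coding sum), other filters on low values, and E14 as the fetal library. Python 3.11.15, pandas 2.3.3, NumPy 2.4.6, SciPy 1.17.1 and Matplotlib 3.10.9 were used.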

Additional observations from a re-analysis of the deposited data

How the results depend on the processing

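No paired analysis was possible because each stage had 1 library and no replicate numbers. With a pseudocount of 0.1, 2 members were higher at 3 weeks against E18, where 45.7% of all entries were higher. At 6 months against 3 weeks 6 members were lower, where 31.0% of all entries were lower. Of the 7 lists' genes, 1 was then higher at E18 against E14, 9 were lower at 3 weeks against E18, 38 lower at 6 months against 3 weeks, and 23 higher and 21 lower at 6 months against E18. The matching shares of all entries were 7.46%, 17.9% and 31.0%, and 40.9% higher and 25.8% lower in the last comparison. The MCM2 to MCM7 median was then -0.90 at 3 weeks against E18, -1.34 at 6 months against 3 weeks and -2.18 at 6 months against E18.

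At a 4-fold limit, 0 members were lower at 3 weeks against E18 or at 6 months against 3 weeks, and 0 were higher and 1 lower at 6 months against E18. List genes then gave 0 lower between the fetal libraries, 5 higher and 0 lower at 3 weeks against E18, 0 in either direction at 6 months against 3 weeks, and 5 higher and 0 lower at 6 months against E18.

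Under the median of ratios, 3 members were lower at 3 weeks against E18 and 1 at 6 months against 3 weeks. List genes gave 20 higher in the first of these, and 6 higher and 1 lower in the second. Of all entries, 25.4% were higher and 14.3% lower in the first, and 14.8% higher and 5.79% lower in the second. The MCM2 to MCM7 median was -0.45 at E18 against E14, -1.02 at 3 weeks against E18 and -0.53 at 6 months against 3 weeks.

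Under the ribosomal protein scaling, 5 members were higher and 0 lower at 3 weeks against E18, 1 was lower at 6 months against 3 weeks, and 2 were higher and 1 lower at 6 months against E18. List genes gave 0 lower at E18 against E14, 66 higher and 0 lower at 3 weeks against E18, 6 higher and 7 lower at 6 months against 3 weeks, and 57 higher and 0 lower at 6 months against E18. Of all entries, 0.876% were lower in the first of these comparisons. The shares higher and lower were 52.8% and 2.10% in the second, 16.1% and 9.18% in the third, and 55.4% and 2.75% in the last. The MCM2 to MCM7 median was -0.35 at E18 against E14, 0.31 at 3 weeks against E18, with its sign turned, -0.74 at 6 months against 3 weeks and -0.38 at 6 months against E18.

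With an equal protein-coding sum, 3 members were lower at 3 weeks against E18 and 0 higher at 6 months against E18. List genes gave 5 lower at 3 weeks against E18, 1 higher at 6 months against 3 weeks, and 9 higher and 24 lower at 6 months against E18. Of all entries, 15.3% were lower in the first of these, 7.37% higher in the second, and 26.8% higher and 24.5% lower in the last. The MCM2 to MCM7 median was -0.36 at E18 against E14, -1.05 at 3 weeks against E18, -0.93 at 6 months against 3 weeks and -2.00 at 6 months against E18. With E14 as the fetal library, 2 members were lower at 3 weeks, and the median was -0.88 at 3 weeks and -1.91 at 6 months. The median of all entries was 0.55 and 0.30 there, and shares called were not computed. The cause of these moves, beyond the construction of each setting, was not tested.

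The median of MCM2 to MCM7 over the mean of MCM8 and MCM9, times 3, was 5.91 at 6 months and 31.8 at E14. Chosen after seeing the data, the sum without MCM7 gave 36.6, 25.8, 5.87 and 4.65 over the 4 stages. MKI67 over the mean without MCM7 was 0.560, 0.520, 1.22 and 0.577 (also chosen after seeing the data). The share of all entries called higher at 3 weeks against E18 was 52.8% under the ribosomal protein scaling and 12.2% without a filter on low values. Depth limits MCM8 most, with 28 reads in its lowest library, and the lack of replicates limits every difference.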
